A study of Mus musculus with 4 samples.

Results

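The genes described here encode the immunoproteasome and the machinery that loads peptides onto MHC class I molecules. They were chosen by name, with earlier results of these data known. Of the 10 listed genes 9 had a feature on the array, out of 19505 genes with a symbol there. The catalytic subunits Psmb8, Psmb9 and Psmb10, the activator subunits Psme1 and Psme2, the transporter and loading genes Tap1, Tap2 and Tapbp and the light chain B2m were measured with 1 feature each. Nlrc5, the transactivator of class I genes, was not analysed here. CD8+ T cells were taken from C57/BL6 mice (spleen and lymph nodes) and activated for 3 days with beads carrying antibodies to CD3 and CD28, in medium with IL-2. All 4 cultures received this stimulus. The 2 control cultures were left untreated, and 25 µM spermidine, a polyamine, was in the medium of the other 2. Total RNA was hybridised to Clariom S mouse arrays, and all values are log2 signals. The labels call the arrays of a group biological replicates but do not say which animal or culture each came from. A p-value here therefore reflects only how far these 4 samples spread, and that spread may be technical.

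Most proteins that a cell degrades are cut by the proteasome, a barrel whose inner rings carry the catalytic subunits. Interferon gamma makes cells replace the standard catalytic subunits by immunosubunits, and Psme1 and Psme2 form a cap, the 11S activator, that opens the barrel. The resulting peptides pass through the TAP transporter into the endoplasmic reticulum, where tapasin (Tapbp) and chaperones help load them onto a class I heavy chain paired with B2m. Activated T cells carry high levels of these genes, and CD8+ T cells recognise peptides presented in this way on other cells.

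Of the members, 4 lie side by side in the mouse MHC on chromosome 17, in the order Psmb9, Tap1, Psmb8, Tap2, with no other gene between them in RefSeq. Psmb9 and Tap1 are read in opposite directions from start sites 226 bases apart, so their promoter windows, each running from 250 bases before to 50 bases after a start site, share 275 bases. The 250 bases before the start site of 3 members are shown 5′ to 3′ (RefSeq, GRCm38.p6): that shared stretch, the promoter of the neighbouring Psmb8, and that of B2m, whose motifs differ. Capitals mark the letters of a searched motif on either strand.
Psmb9, minus strand, chr17:34187331-34187580: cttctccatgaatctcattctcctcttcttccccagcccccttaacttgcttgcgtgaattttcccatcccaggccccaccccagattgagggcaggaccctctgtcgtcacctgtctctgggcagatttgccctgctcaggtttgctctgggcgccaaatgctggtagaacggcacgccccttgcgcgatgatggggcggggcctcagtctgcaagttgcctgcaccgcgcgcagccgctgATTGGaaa
Psmb8, plus strand, chr17:34197945-34198194: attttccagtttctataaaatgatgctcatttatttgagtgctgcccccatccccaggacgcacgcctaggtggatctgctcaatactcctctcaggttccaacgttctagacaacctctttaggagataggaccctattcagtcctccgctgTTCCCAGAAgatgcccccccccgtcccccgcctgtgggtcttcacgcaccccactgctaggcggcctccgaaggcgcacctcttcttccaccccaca
B2m, plus strand, chr2:122147437-122147686: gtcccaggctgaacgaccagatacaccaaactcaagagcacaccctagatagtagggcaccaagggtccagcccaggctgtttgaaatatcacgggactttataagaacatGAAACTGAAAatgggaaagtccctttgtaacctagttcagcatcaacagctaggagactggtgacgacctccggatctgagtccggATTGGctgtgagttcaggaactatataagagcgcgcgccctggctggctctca

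RefSeq windows were found for 8 of the 9 measured members, not for Tap2. The interferon-stimulated response element was searched as GAAA, any 2 bases, then GAAA. It was present in B2m, 139 bases upstream, and in Psme1, 10 bases after the start site, and in 3.44% of all 32851 promoter windows. The gamma activated site TTCNNNGAA was found in Psmb8 alone of these members, 97 bases upstream, and in 8.3% of all windows. The Y box core CCAAT stood in 4 members (B2m, Psmb9, Tap1 and Tapbp) and in 37.4% of all windows, and in Psmb9 and Tap1 it was the same site seen from both sides. The palindrome TGACGTCA was in no member's window and in 1.79% of all windows. Both strands were searched, none of the matches in these windows overlapped another, and a match is a description of letters.

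All 9 measured members had lower means with spermidine, from -0.11 to -0.97 on the log2 scale, with a median of -0.23. The largest differences were those of the catalytic subunits Psmb9 (1.96-fold lower) and Psmb10 (1.63-fold lower). The other 7 differed by at most 0.28. None passed the test: 0 of 9 members and 0 of 22206 gene features (0%) had an adjusted p under 0.05 (limma, Benjamini-Hochberg over all features). At an unadjusted p under 0.05, 1558 features passed in either direction, and 3.64% of all features passed as lower, among them Psmb9 and Psmb10. Over all gene features the median difference was -0.01 and 50.9% had a lower mean. Among the 9228 features whose mean exceeded background, 54.2% had a lower mean, and among the 4287 at least as bright as the dimmest member 55.9% did, with a median of -0.04. Background is taken here as 6.35, the mean 95th percentile of the array's antigenomic control features. In bulk RNA such as this, fewer cells of a type and less RNA per cell cannot be told apart.

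In 5 members (Psmb8, Psmb9, Psmb10, Tap1 and B2m) both spermidine arrays lay below both control arrays, and in 0 did both lie above. Over all gene features these shares were 18.4% below and 18.3% above. Among features above background 22.5% lay below in this way, and among those as bright as the members 24.4%. The median over the members was -0.13 without control replicate 1, -0.17 without control replicate 2, -0.14 without spermidine replicate 2 and -0.25 without spermidine replicate 1.

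**Figure D1:**
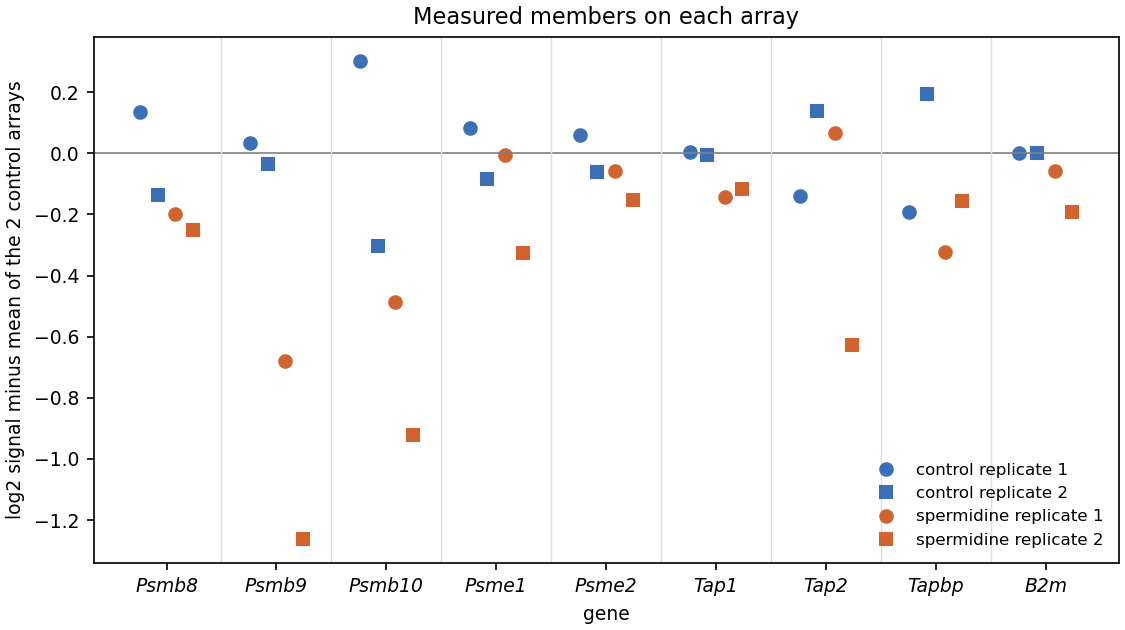
Log2 signal of the 9 measured members on each array, as the deviation from the mean of the 2 control arrays (vertical axis); colours are groups and symbols replicates. The spermidine points of Psmb8, Psmb9, Psmb10, Tap1 and B2m lie below both control points. Those of Psme1, Psme2, Tap2 and Tapbp overlap with the controls.

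Psmb9 encodes the immunosubunit β1i, which stands in for Psmb6. Its log2 signal was 12.64 and 12.57 under control conditions, against 11.93 and 11.34 with spermidine. The control arrays lay close together and both spermidine arrays were lower, with spermidine replicate 2 the lowest. The difference was -0.97 ± 0.26 (SE; 95% interval -1.58 to -0.36; limma adjusted p = 0.637). Its size was 1.67 times the gap between the spermidine arrays, the wider of both groups. With 1 array left out it ran from -0.68 (without spermidine replicate 2) to -1.26 (without spermidine replicate 1).

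Psmb10 encodes β2i, the counterpart of Psmb7. Signals of 10.86 and 10.25 without spermidine stood against 10.07 and 9.64 with it. The groups did not overlap, but the control arrays were 0.61 apart and the gap between the groups was narrow. The difference of -0.70 ± 0.29 (SE; 95% interval -1.37 to -0.041) had an adjusted p = 0.706. Without control replicate 1 it was -0.40, and without control replicate 2 it was -1.01.

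Psmb8, which encodes β5i, the counterpart of Psmb5, differed by less. Its values were 14.33 and 14.06 in control and 14.001 and 13.95 in spermidine arrays. Both spermidine arrays were the lower ones, with control replicate 2 closest to them. The difference was -0.23 ± 0.23 (SE; 95% interval -0.75 to 0.30; adjusted p = 0.875), and it was smaller than the gap between the control arrays. Without control replicate 1 it was -0.09 and without control replicate 2 -0.36.

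The Psmb9 difference was set against that of Tap1, which starts within the same promoter stretch, a pair chosen after the values were seen. Tap1, a subunit of the peptide transporter, differed by at most 0.025 between arrays of a group, with 14.46 and 14.45 in control and 14.31 and 14.34 in spermidine arrays. Its groups were separate, at a distance of only -0.13 ± 0.22 (SE; 95% interval -0.63 to 0.37; adjusted p = 0.933). Between the groups, the log2 ratio of Psmb9 to Tap1 within an array differed by -0.84, and by -0.54 without spermidine replicate 2 or -1.14 without spermidine replicate 1. Against its other near neighbour Psmb8 the ratio of Psmb9 differed by -0.75. For both ratios the exact permutation test over the 6 splits of 4 arrays, two-sided, gave p = 0.333. That is the smallest it can give with so few arrays, so the test cannot decide whether these neighbours changed unequally.

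Tap2, the other transporter subunit, was 12.13 and 12.40 in control and 12.33 and 11.64 in spermidine arrays. Spermidine replicate 2 stood apart as the lowest array and spermidine replicate 1 lay between the controls. The difference of -0.28 ± 0.29 (SE; adjusted p = 0.879) therefore rested on that array, and without it the value was 0.067. Tapbp, which bridges the transporter and the class I molecule, was 13.37 and 13.76 in control and 13.24 and 13.41 in spermidine arrays. One spermidine array exceeded 1 control array, and the difference was -0.24 ± 0.24 (SE; adjusted p = 0.876). Without control replicate 2 the Tapbp difference was -0.04 and without control replicate 1 it was -0.43.

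The activator subunit genes barely differed. Psme1 stood at 16.88 and 16.72 in control and 16.79 and 16.47 in spermidine arrays, a difference of -0.17 ± 0.24 (SE; adjusted p = 0.920). That difference rested on spermidine replicate 2: without it the value was -0.0052, and without spermidine replicate 1 it was -0.33. Psme2 stood at 13.82 and 13.70 in control and 13.71 and 13.61 in spermidine arrays, a difference of -0.11 ± 0.22 (SE; adjusted p = 0.953). In both genes spermidine replicate 1 lay between the control arrays or level with one of them. Their 95% intervals, -0.71 to 0.38 for Psme1 and -0.62 to 0.40 for Psme2, leave room for a change in either direction.

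B2m, the light chain shared by class I molecules, was the brightest gene feature on 4 of 4 arrays. It read 19.93 on each array without spermidine, then 19.87 and 19.74 with it, a difference of -0.13 ± 0.22 (SE; adjusted p = 0.940). The control value, 19.9315, lay just under the log2 of 1000000, which is 19.9316, and whether signals were capped there was not tested. After cyclic loess the B2m difference was -0.064. A further quantile normalization gave -0.0046, but it sets the brightest feature of every array to about the same value. That value was therefore close to 0 by construction and says nothing about B2m. Psme1 is also among the 188 features above 16 on every array, where differences can be compressed.

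**Figure D2:**
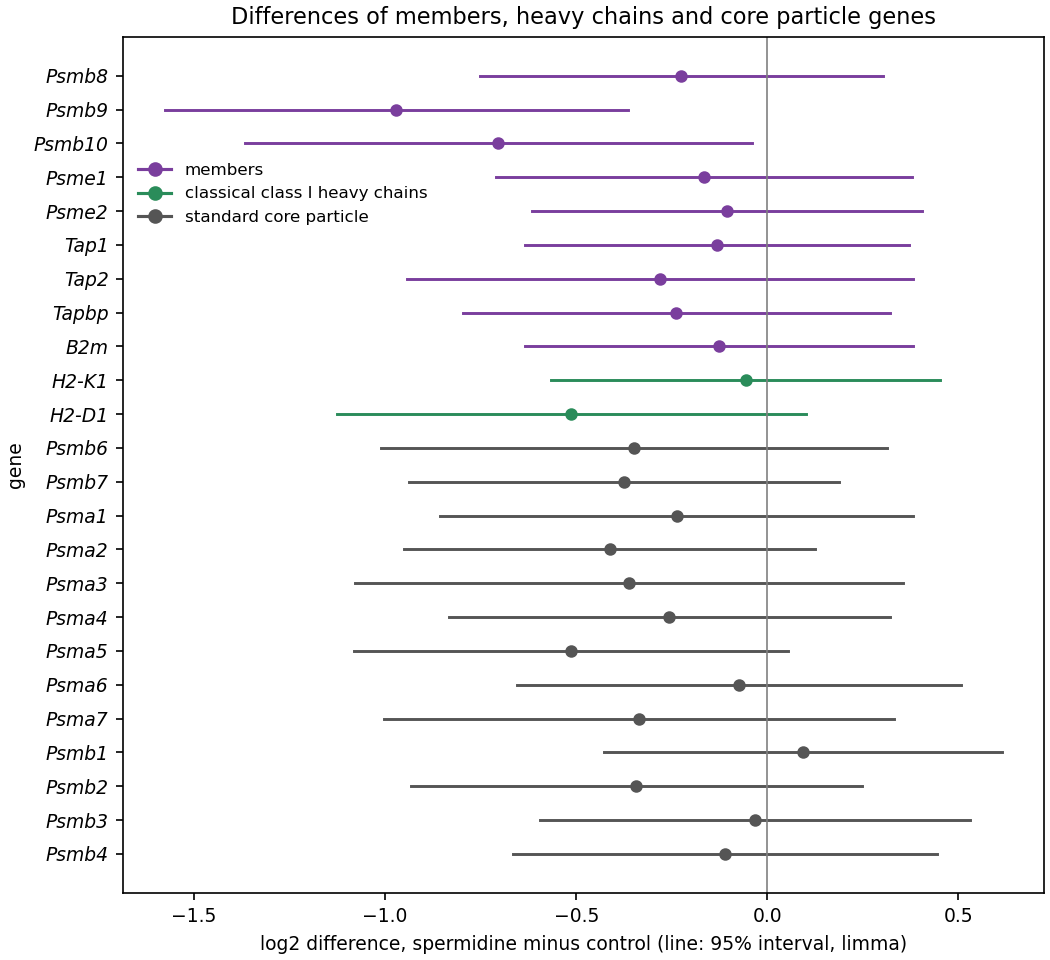
Log2 difference between spermidine and control (horizontal axis) with its 95% interval from limma for the members, the classical class I heavy chains and the standard core particle genes. The intervals of Psmb9 and Psmb10 lie below 0 and the others cross it.

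Genes of the standard core particle, whose catalytic subunits the immunosubunits replace, had lower means as well. Of 13 measured genes 12 had lower means, with a median of -0.34, against -0.23 for the members. Psmb6, the standard counterpart of Psmb9, read 12.71 and 12.09 in control and 12.27 and 11.83 in spermidine arrays (difference -0.35 ± 0.29, SE). Psmb7, the counterpart of Psmb10, read 13.52 and 13.09 against 12.96 and 12.90 (difference -0.37 ± 0.24, SE). Psmb5 was not analysed here. Among the structural subunits Psma5 (-0.51), Psma2 (-0.41), Psma3 (-0.36) and Psmb2 (-0.34) had the largest statistics, and 0 of 13 passed (lowest adjusted p = 0.733). These values depended on single arrays. Without control replicate 1 the median of the 11 structural subunits was 0.022 with 5 of 11 lower, and without spermidine replicate 2 it was -0.062 with 8 of 11 lower. With all arrays it was -0.26, and without control replicate 2 or spermidine replicate 1 it was -0.47. For the 3 immunosubunits the median was -0.70, and it was -0.40 without control replicate 1, -0.49 without spermidine replicate 2, -0.92 without spermidine replicate 1 and -1.005 without control replicate 2. The difference between the immunosubunits and the standard core was not tested.

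Assembly factors, other activators and the inhibitor had differences from -0.43 to 0.10. In this list 6 of 8 had lower means (median -0.15), among them the assembly chaperone Psmg2 (-0.43) and the maturation factor Pomp (-0.19), which has a role in immunoproteasome assembly. Psmg1 stood at -0.25 and Psmg4 at -0.25, the latter above background on 1 array only. Psme3, which forms a related cap, stood at -0.11 and the inhibitor Psmf1 at -0.12. With 1 array left out Pomp, Psmg1, Psme3 and Psmf1 changed sign, while Psmg2 and Psmg4 did not. None of the 8 passed.

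Of the class I heavy chain genes, which present the peptides, 8 of 14 measured had lower means, with a median of -0.11, and 0 passed. H2-D1 read 14.91 and 14.44 in control and 14.36 and 13.97 in spermidine arrays, a difference of -0.51 ± 0.27 (SE; adjusted p = 0.745). H2-K1, the other classical heavy chain measured, read 17.41 and 17.48 against 17.32 and 17.45, a difference of -0.06 ± 0.22 (SE). H2-D1 was thus lower in both spermidine arrays, while H2-K1 overlapped between groups near the top of the scale. The nonclassical genes H2-M3 (-0.51), H2-Q4 (-0.35) and H2-T23 (-0.33) were also separate between groups. Several heavy chain genes of the MHC are close copies of each other, so their values are uncertain. Whether features share signal was not tested.

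Chaperones of the loading complex were mixed. Calr, calreticulin, stood at -0.34, while Canx, calnexin, stood at 0.00 and Pdia3, the disulfide isomerase of the loading complex, at 0.04. Tapbpl, a tapasin relative that edits peptides, was 11.24 and 10.998 in control and 10.56 and 10.93 in spermidine arrays (difference -0.38 ± 0.24, SE). In the list 6 of 10 had lower means (median -0.14), with the translocon gene Sec61b at -0.64 and the chaperone Hspa5 at -0.30, and 0 passed. Of the peptide trimming peptidases 4 of 7 had lower means (median -0.03). The trimming enzyme of the endoplasmic reticulum, Erap1, stood at -0.03, Rnpep at -0.26, Lap3 at -0.08, Tpp2 at 0.15 and Thop1 at 0.24.

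Regulators that act on these promoters did not share a direction. Of 15 measured genes 8 had lower and 7 higher means, with a median of -0.00091 and 0 passing. Irf1, an interferon-induced activator of these genes, read 13.74 and 13.91 in control and 13.83 and 13.97 in spermidine arrays (difference 0.07 ± 0.22, SE). Rfx5, part of the complex that binds class I and class II promoters, was higher in both spermidine arrays (difference 0.52 ± 0.27, SE; adjusted p = 0.745). The lower ones with the largest statistics were Nfyc (-0.51), a subunit of the factor that binds CCAAT, Atf1 (-0.35) and Irf8 (-0.34). Nfyc and Atf1 were separate between groups, while Irf8 overlapped and was above background on 3 arrays only. Without spermidine replicate 2 the Irf8 difference was 0.026.

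Interferon gamma and its pathway had differences from -0.43 to 0.29. Ifng read 8.53 and 8.24 in control and 8.35 and 8.13 in spermidine arrays, a difference of -0.14 ± 0.24 (SE; adjusted p = 0.932). Its receptor chains Ifngr1 and Ifngr2 stood at 0.08 and 0.04, named after their values were seen, and the kinase Jak1 at 0.29. The inhibitors of the pathway had these values: the phosphatase Ptpn2 at -0.43, Usp18 at -0.31 and Socs1 at -0.26. Without control replicate 1 Usp18 stood at 0.12 and Socs1 at 0.0045, and without spermidine replicate 2 at 0.058 and -0.033. Of this list 5 of 9 had lower means (median -0.14), and without control replicate 1 the median was 0.0050 with 3 of 9 lower. Of 14 other interferon gamma responsive genes 11 had lower means, with a median of -0.07 and 0 passing. Xaf1 stood at -0.89 (adjusted p = 0.637), the GTPase genes Iigp1 at -0.39 and Irgm2 at -0.35, and Cxcl9, below background on every array, at -0.37. The guanylate-binding protein genes Gbp2, Gbp4 and Gbp7 stood at -0.02, -0.04 and 0.01 and were named after their values were seen. Of the 42 pathway list genes named by a fixed choice or by the largest statistics, 16 changed sign when 1 array was left out. Among those named after their values were seen, Ifngr2, Gbp2, Gbp4 and Gbp7 changed sign as well, and Ifngr1 did not.

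**Figure D3:**
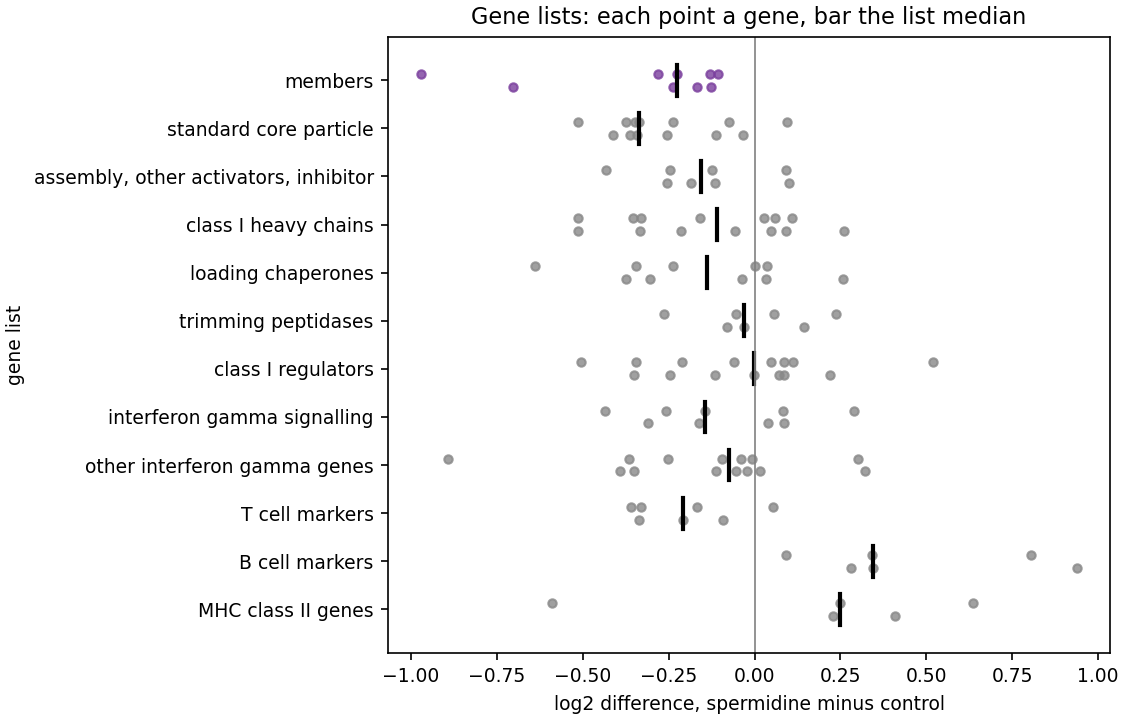
Log2 difference of each measured gene (points) by gene list, with the list median as a bar. The members lie wholly below 0, the standard core particle has a median of -0.34, regulators centre near 0 and B cell markers lie above 0.

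Cell markers were read beside these values. All 7 measured T cell markers were above background on every array, among them Cd8a at 16.66 and 16.68 in control and 16.59 and 16.57 in spermidine arrays. Of the T cell markers 6 of 7 had lower means, and their median of -0.21 was close to the members' -0.23. The summed linear signal of the T cell list ran from 366200 to 392400 in control and from 319800 to 324000 in spermidine arrays. B cell markers had higher means in 6 of 6 genes (median 0.34), with summed signals of 420.8 to 440.3 in control and 526.2 to 662.3 in spermidine arrays. Cd79a, part of the B cell receptor, read 6.44 and 6.50 in control and 7.40 and 7.15 in spermidine arrays. Of this list, Cd22, Ms4a1, Blk and Pax5 were below background on every array. MHC class II genes had higher means in 4 of 5 (median 0.25; summed signal 946.3 to 1156 in control and 1179 to 1346 in spermidine arrays). All 6 macrophage and monocyte markers (90.65 to 96.39 against 96.8 to 99.58) and all 7 dendritic cell markers (111.1 to 126.1 against 101.9 to 135.9) were below background on every array. CD4 T cell markers had 1 of 2 lower (Cd4 -0.06, Zbtb7b 0.76; 217.7 to 232.9 against 255.4 to 320.8) and NK cell markers 2 of 4 (7122 to 14220 against 4664 to 10520). Most of the NK sum came from Eomes (-0.50), a transcription factor that activated CD8+ T cells also express. Klrd1 had the largest difference of the list, -0.89, with 10.88 and 10.44 in control and 9.66 and 9.87 in spermidine arrays. Klrb1c (0.11) and Ncr1 (0.44) had higher means, and Ncr1, a defining NK receptor, was below background on every array. Hybridisation spike-ins, 4 features, were higher in the spermidine arrays by a mean of 0.45, the direction opposite to that of the members. The part of these values in the members' differences was not tested.

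**Figure D4:**
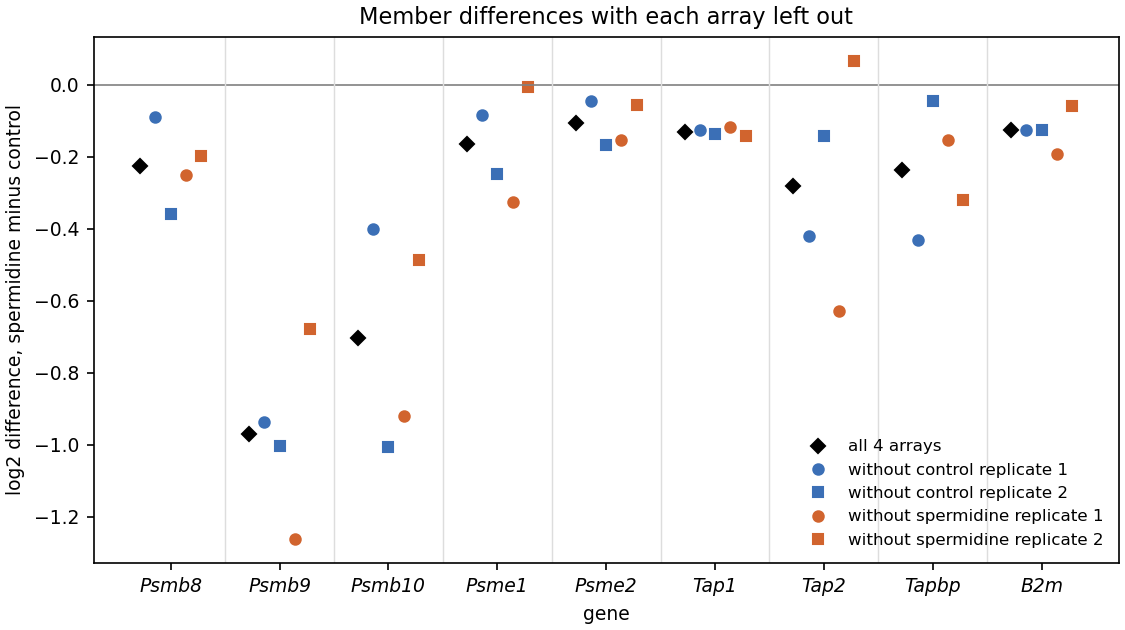
Log2 difference of each member between spermidine and control (vertical axis) with all 4 arrays (black) and with each array left out in turn. Psmb9 stays between -0.68 and -1.26, and Tap2 moves to 0.067 without spermidine replicate 2.

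Taking the mean profile of the members over the 4 arrays (0.20 and 0.13 in control, -0.05 and -0.28 in spermidine arrays, each gene centred), the genes outside the list with the nearest profiles were the chromatin insulator gene Ctcf, Ppil4, Emc3, Pacrgl and Emc7. Their root mean square distances from it ran from 0.0121 to 0.0179. Ctcf read 13.42 and 13.35 in control and 13.17 and 12.96 in spermidine arrays. Of 8348 genes compared, 568 lay within 0.1 of the profile, and the median distance was 0.246. The members themselves lay between 0.0932 (Psme1) and 0.344 (Psmb9) from their own mean.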

How the data were processed

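The authors deposited 1 log2 value per feature and array. Per the submitters' processing notes, Affymetrix Expression Console and RMA were used, with no version named. By its design RMA subtracts background, gives all arrays 1 distribution and merges probes into features, and very dim or very bright features can have their differences compressed. The log2 base was inferred from the values, and the sources used here do not give the array's genome build. Labels came from 250 ng of RNA a sample.

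Of 28846 features, 6640 controls were left out and 22206 gene features were fitted together in limma 3.58.1 (R 4.3.3; lmFit and eBayes) with an untrended prior worth 5.96 degrees of freedom beside 2 from the residuals. Tests were two-sided, and p-values were adjusted by Benjamini-Hochberg against a threshold of 0.05. The platform annotation named 19572 features with 1 symbol, 0 with several and 2634 with none; 0 symbols changed against RefSeq. The brightest feature stood for a symbol. The number of arrays limits the precision, and an exact permutation test of 2 against 2 cannot go below p = 0.333. The fit was tested on 10 simulated data sets drawn from its own variance prior, with changes planted in features above the median level. It called 4.93% of 2-fold changes, 83.9% of 4-fold and 98.5% of 8-fold ones. Most changes of the size seen in the members would thus be missed, and a lack of calls does not show a lack of change. Named were all members, 15 genes fixed by name and up to 4 genes of each pathway list with the largest statistics. Of 156 listed genes 136 were measured. Members and lists were chosen with earlier results of these data known. Alternatives concerned the prior, array weights, scaling, dim features, the replicate block and each array left out.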

Additional observations from a re-analysis of the deposited data

How the results depend on the processing

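No member passed an adjusted p of 0.05 (limma) under any of the 14 alternatives. Of 135 recomputed member differences, 134 kept their direction. The exception was Tap2, which ran from -0.63 to 0.067 with 1 array left out. Over all gene features, 1 feature and no member passed with an intensity trend in the prior, after median centring, after cyclic loess, among features above the median level, above the antigenomic percentile, and with the replicate block; the cause was not tested. The adjusted p of Psmb9 ran from 0.268 (replicate block) to 0.66 with all 4 arrays and from 0.272 to 1 with 1 left out. Replicate numbers are not stated to pair the cultures. Deviations of same-numbered arrays correlated at 0.21 over all features and at 0.379 over those above background, where the members lie, and the block changed no member's call. With 1 array left out the median over the members ran from -0.13 to -0.25, and the count of members with every spermidine array below every control array from 6 to 8 (8 without spermidine replicate 1). Over all gene features the same omissions gave shares from 32.8% to 37.3% (37.3% without spermidine replicate 1), since fewer arrays separate more easily. Scaling moved the median of all features by less than 0.1. The B2m difference was smallest, -0.0046, after a further quantile normalization, which brings the brightest feature close to 0 difference by construction.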
